A study of Homo sapiens with 54 samples.

Results

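Enzalutamide (Enza), an antiandrogen drug, was added to estradiol (E2) in C4-2 cells, a castration-resistant derivative of the LNCaP prostate cancer line, and total RNA was sequenced. The 6 libraries compared, of 54 in the study, were the 3 labelled as C4-2 cells given E2 at 100 nM with Enza at 1 µM and the 3 labelled as C4-2 cells given E2 at 100 nM alone, all for 12 h. C4-2 cells given vehicle (ethanol) and C4-2 cells given Enza at 1 µM alone, 3 libraries each, served as references. Another 2 groups of C4-2 libraries, given the compound OSU-ERb-12 with or without Enza, were not compared. They entered the estimate of the spread, the filter on low values and the correlations with KLK2. The same treatments of LNCaP and of 22Rv1, a separate prostate cancer line, were used where lines are compared. All groups, vehicle included, came from cells maintained in medium with fetal bovine serum, and the labels do not mention removal of its hormones. The labels call the samples biological triplicates and do not say whether they came from separate passages; the p-values measure the spread between these libraries. Of 19225 genes and other transcripts, 14027 reached 1 CPM (count per 1000000 reads) in at least 3 C4-2 libraries and were tested.

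Androgens turn on genes such as those of the kallikrein family in luminal prostate cells and lower the level of another set of genes. Enza blocks the action of androgens on their target genes and is used against prostate cancer. Estradiol is the ligand of the estrogen receptors. The contrast of E2 with and without Enza addresses which of the E2 responses the drug blocks.

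The 6 libraries held between 44307877 and 51658164 reads in genes, so that 1 read was worth 0.0204 to 0.0239 CPM. All 14 fixed markers of luminal prostate cells passed the filter on low values, and their summed level was 7197 to 7407 CPM in the E2 libraries and 5975 to 6380 CPM in the E2+Enza libraries. Summed markers of basal or squamous epithelium lay at 2.17 to 4.65 CPM and of leukocytes at 8.51 to 11.4 CPM over the 6 libraries, with overlapping groups. Summed fibroblast markers were at 14.5 to 15.9 CPM with E2 and 16.0 to 17.8 CPM with E2+Enza, and LUM had 0 reads in all 6 libraries. Summed neuroendocrine markers were at 9.21 to 9.68 CPM with E2 and 10.1 to 11.8 CPM with E2+Enza, most of it ENO2 (5.83 to 6.79 against 7.56 to 8.02 CPM). For both sums every E2+Enza library was above every E2 library, and their part in the results was not tested. Over single genes, the 2 groups did not overlap for 16.7% of those tested. Of the markers that passed the filter, 0 of 4 for fibroblasts and 0 of 2 for neuroendocrine cells were called as changed. Of the 14 luminal markers, 8 were called lower and 0 higher (2.03% and 1.43% of all genes). KLK3, an androgen-activated gene, made up the largest part of their sum, at 2561 to 2575 and 2192 to 2294 CPM with E2 and E2+Enza. FOXA1 overlapped between the groups (392.3 to 407.9 and 389.6 to 412.8 CPM). FOLH1 was higher in every E2+Enza library (537.3 to 568.5 and 589.3 to 648.3 CPM). In bulk RNA, fewer cells of a type and less RNA per cell cannot be told apart. Library 3 of both groups stood apart. Its misfit to its group mates (chi-square of the counts per degree of freedom) was 14.2 and 16.1 for E2 and 10.7 and 13.5 for E2+Enza, against 6.05 and 5.08 between libraries 1 and 2. Deviations of the 2 libraries from their group means had an r of -0.515 across genes. Mitochondrial ribosomal RNA took 0.149% of the reads of E2 library 3, against 0.0293% and 0.0587% in E2 libraries 1 and 2 and 0.0358 to 0.0386% in the E2+Enza libraries. In the reference group given Enza alone, library 2 also stood apart. Its misfit was 15.13 to library 1 and 9.358 to library 3, against 6.815 between libraries 1 and 3. Several, but not all, counts that rest on library 3 of E2 or E2+Enza are also given without it. The part of RNA quality in these counts was not tested. The C4-2 vehicle library 1 is titled as C4-2 but carries the cell line tag of 22Rv1. Across genes its log2 level correlated at r = 0.998 with the mean of the other C4-2 libraries and at r = 0.899 with that of 22Rv1; it was kept as C4-2.

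Adding Enza to E2 lowered androgen-activated genes such as FKBP5, SLC45A3 and KLK2 and raised others by smaller amounts. Of the 14027 genes tested, 486 (3.46%) were called at an adjusted p under 0.05 by limma, 285 lower (2.03%) and 201 higher (1.43%). All 18 genes that changed by at least 1 log2 unit were lower with Enza. The median log2 difference over all genes tested was 0.01. The split of calls depended on the scaling. With scaling to total reads 295 were lower and 276 higher, and with cyclic loess 376 and 220. Without E2 library 3, 255 genes were lower and 116 higher, and 233 of the lower and 106 of the higher calls were shared with the full set. Of the 486 genes, 480 kept their sign. Without E2+Enza library 3, 291 were lower and 119 higher, and without both libraries 316 were lower and 94 higher, so the count of rises moved more than that of falls when library 3 of either group was left out. The E2+Enza and E2 values did not overlap for 2349 genes, 16.7% of those tested.

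**Figure D1:**
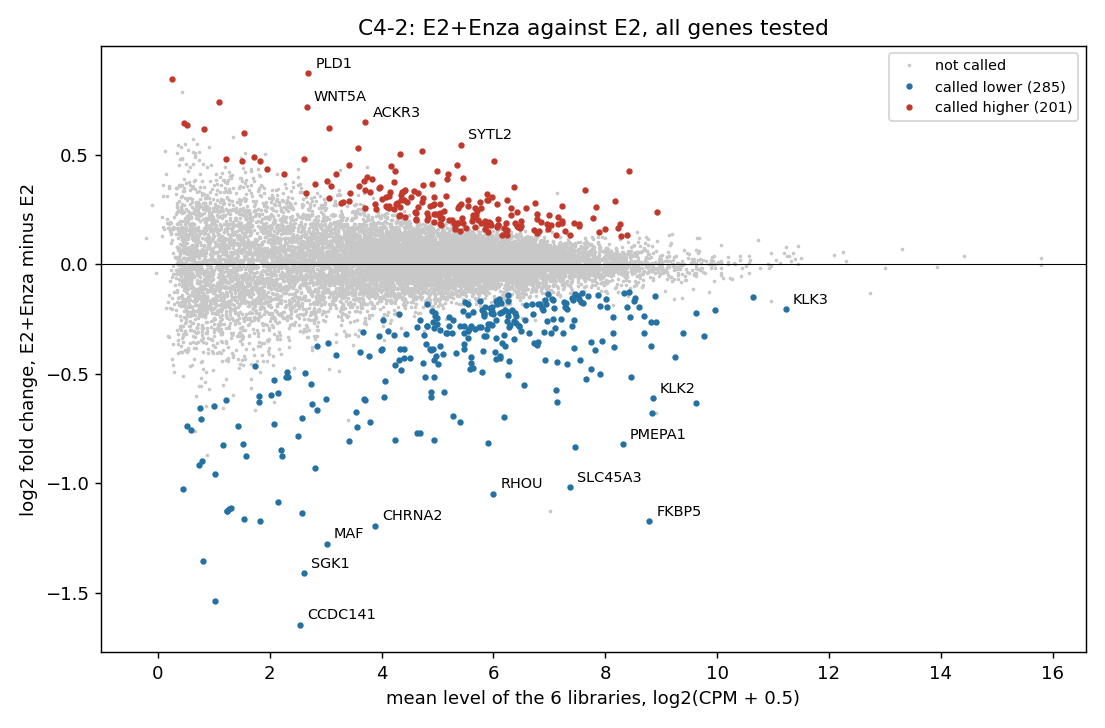
Difference between E2+Enza and E2 in C4-2 for every gene tested (y axis, log2 fold change) against its mean level in the 6 libraries (x axis, log2 of CPM + 0.5); blue and red points are the 285 lower and 201 higher calls. The calls that fell reach past -1, from low-level genes such as CCDC141 to high-level genes such as FKBP5, while no rise exceeds 0.87.

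The kallikreins encode secreted proteases of the prostate, among them KLK3, the prostate-specific antigen. KLK2 stood at 560, 542 and 569 CPM in the 3 E2 libraries and at 356, 363 and 374 CPM in the 3 E2+Enza libraries. Every E2+Enza library was below every E2 library, and the log2 difference was -0.61 (SE 0.045, limma adjusted p = 1.25e-09). The E2+Enza values sat beside those of vehicle, 346, 338 and 362 CPM, and well above those of Enza alone, 179, 199 and 195 CPM. KLK3 stood at 2571, 2561 and 2575 CPM with E2 and at 2192, 2199 and 2294 CPM with E2+Enza, a log2 difference of -0.21 (SE 0.046, adjusted p = 0.00851). The KLK3 groups did not overlap, but its call was lost without E2+Enza library 1 (adjusted p = 0.0538), in a fit of the 6 libraries alone (0.218) and in a fit of all 54 libraries (0.119). KLK4, another prostate kallikrein, fell by 0.22 (SE 0.040).

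The androgen response element is made of 2 short sites, AGAACA and TGTTCT, with 3 free bases between them. KLK3 and KLK2 are shown because an element of this kind just upstream of both genes is textbook knowledge and both genes fell. The sequences are the 250 bases before each start on chromosome 19, plus strand, from RefSeq (GRCh38.p14), chr19:50854665-50854914 for KLK3 and chr19:50873189-50873438 for KLK2, 5′ to 3′, with the window closest to the element in capitals.
KLK3: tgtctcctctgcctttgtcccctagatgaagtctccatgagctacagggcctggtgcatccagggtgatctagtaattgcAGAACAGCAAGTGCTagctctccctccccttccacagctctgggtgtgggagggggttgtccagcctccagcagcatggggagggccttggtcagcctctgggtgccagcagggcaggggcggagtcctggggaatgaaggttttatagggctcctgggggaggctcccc
KLK2: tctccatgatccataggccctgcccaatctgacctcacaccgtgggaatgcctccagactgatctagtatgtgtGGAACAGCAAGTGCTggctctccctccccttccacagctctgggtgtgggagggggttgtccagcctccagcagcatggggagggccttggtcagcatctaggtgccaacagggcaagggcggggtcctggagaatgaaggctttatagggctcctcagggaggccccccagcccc
The KLK3 window lies 170 to 156 bases before the start and has 2 mismatches over the 12 fixed bases. The KLK2 window lies 176 to 162 bases before the start and has 3 mismatches. Between them is 1 substitution, A1G, with KLK3 first and positions counted from 1 at the 5′ end of the window. Searched on both strands with up to 2 mismatches, this element was in 0.433% of the 10863 promoters of tested genes, in 0.446% of the 224 promoters of genes called lower (1 promoter) and in 0.641% of the 156 promoters of genes called higher (1 promoter). The short site alone, exactly matched as AGAACA or TGTTCT and counted wherever the element also lay, was in 7.4%, 7.14% and 7.05% of these promoters. The shares of the called genes were thus near those of all promoters in these 250 bases. The KLK2 window, with 3 mismatches, lies outside this search, so the shares say nothing of elements as weak as that one.

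Further genes known to be turned on by androgens fell with the kallikreins. FKBP5, a co-chaperone of steroid receptors, stood at 602, 656 and 578 CPM with E2 and at 276, 254 and 284 CPM with E2+Enza. The E2 values were far above the vehicle values of 236, 221 and 225 CPM, and the E2+Enza values were slightly above those of vehicle. Its difference between E2+Enza and E2 was -1.17 (SE 0.049, adjusted p = 2.15e-14).
SLC45A3, a sugar transporter made in prostate, stood at 223, 227 and 210 CPM with E2 and at 115, 98.8 and 112 CPM with E2+Enza, a difference of -1.02 (SE 0.058, adjusted p = 1.06e-11). All 3 E2+Enza libraries were below all 3 E2 libraries and far above Enza alone, where SLC45A3 averaged 16.8 ± 0.556 CPM (SD, n = 3). PMEPA1, an inhibitor of TGF-beta signalling, fell by 0.82 (SE 0.043), TMPRSS2, a cell-surface protease, by 0.51 (SE 0.045), ACSL3, a fatty acyl-CoA synthetase, by 0.68 (SE 0.042) and TRPM8, a cold-sensing ion channel, by 0.37 (SE 0.059). STEAP4, a metalloreductase, was low, at 1.63, 1.70 and 1.66 CPM with E2 and 0.713, 0.795 and 0.462 CPM with E2+Enza (difference -0.91, SE 0.176).

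**Figure D2:**
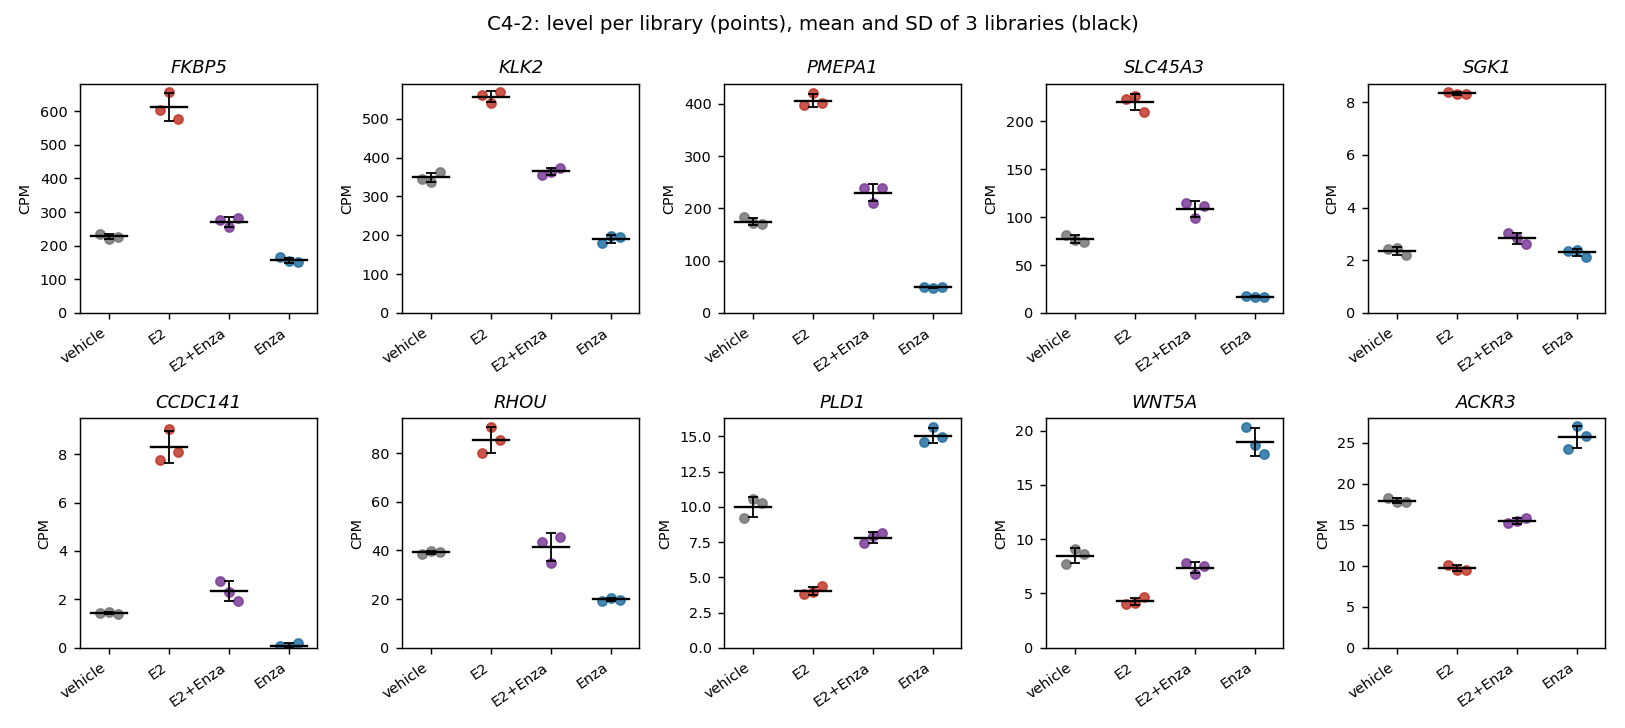
Level of 10 genes in CPM (y axes start at 0) in each library of 4 C4-2 groups (x axis); points are libraries, black lines and bars the mean and SD of 3. For the genes lowered by Enza the E2+Enza points lie below E2 and closer to vehicle than to E2; for PLD1, WNT5A and ACKR3 they lie above E2 and below Enza alone.

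Of the 79 genes in the list of androgen-activated genes, 75 were tested, and 46 were called lower with E2+Enza than with E2 and 0 higher, against 2.03% and 1.43% of all genes. The median of the 75 was -0.26, against 0.01 for all genes tested. Further members that fell were ELL2, an RNA polymerase elongation factor (-0.63), CAMKK2, a calcium-dependent kinase (-0.50), NDRG1 (-0.44) and ELOVL5, a fatty acid elongase (-0.43). Among the 29 members not called were CDC14B (0.26), GPD1L (0.09) and CCND3 (-0.01). The E2 response of the same list, against vehicle, was 51 higher and 0 lower (2.72% and 3.11% of all genes), with a median of 0.32. Against vehicle, E2+Enza left 4 members higher and 0 lower (0.0428% and 0.0356% of all genes), with a median of 0.05.

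The 15 genes with the largest falls were taken from called genes that had a symbol, groups that did not overlap and at least 1 CPM on average. CCDC141 led them, at 7.74, 9.03 and 8.10 CPM with E2 and 2.75, 2.31 and 1.92 CPM with E2+Enza, a difference of -1.64 (SE 0.161, adjusted p = 1.57e-07). Its vehicle values were 1.45, 1.47 and 1.39 CPM, below every E2+Enza value. SGK1, a serum- and steroid-induced kinase, stood at 8.39, 8.31 and 8.30 CPM with E2 and 3.03, 2.83 and 2.64 CPM with E2+Enza (difference -1.41, SE 0.118).
RHOU, a small GTPase, fell from 80.2, 90.8 and 85.4 CPM to 43.6, 34.8 and 45.7 CPM (difference -1.05, SE 0.073). MAF, a leucine zipper transcription factor, fell by 1.28 (SE 0.139), RUNX1, a transcription factor of blood development, by 1.13 (SE 0.145) and CHRNA2, a subunit of the nicotinic acetylcholine receptor, by 1.19 (SE 0.123). SNAI2, a transcriptional repressor of epithelial genes, fell by 1.54 (SE 0.202) from a mean of 2.51 CPM with E2. SLC2A3, a glucose transporter, fell by 1.35 (SE 0.187) from 2.01 CPM. The others were FKBP5, PLA2G4E (-1.17), DOCK8 (-1.16), ADAM28 (-1.12), OR7E47P (-1.12), ARMC12 (-1.11) and RPS16P5 (-1.08). OR7E47P and RPS16P5 are pseudogenes whose reads may come from near-identical copies. Without library 3 of both groups, an alternative chosen after seeing the data, the calls of ARMC12 and RPS16P5 were lost (adjusted p = 0.0826 and 0.0783). All log2 differences are on the scale of log2(CPM + 0.5), which understates the change of low genes.

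The largest rises, chosen the same way, were smaller. PLD1, a phospholipase that makes phosphatidic acid, stood at 3.85, 3.94 and 4.37 CPM with E2 and at 7.41, 7.90 and 8.14 CPM with E2+Enza, a difference of 0.87 (SE 0.085, adjusted p = 1.57e-07). WNT5A, a secreted WNT ligand, stood at 4.06, 4.12 and 4.66 CPM with E2 and at 7.78, 6.83 and 7.52 CPM with E2+Enza (difference 0.72, SE 0.090). ACKR3, a scavenging receptor for the chemokine CXCL12, stood at 10.1, 9.54 and 9.51 CPM and at 15.2, 15.5 and 15.9 CPM (difference 0.65, SE 0.065). In all 3 genes the E2+Enza values lay between E2 and Enza alone, where the means were 15.1, 18.9 and 25.7 CPM.
SYTL2, a vesicle-tethering protein, rose by 0.55 (SE 0.052), BAMBI, a pseudoreceptor that dampens BMP and activin signals, by 0.52 (SE 0.053), DAPK1, a death-associated kinase, by 0.53 (SE 0.074), SERPINI1, a serine protease inhibitor, by 0.62 (SE 0.094) and CNKSR3 by 0.50 (SE 0.070). A further 6 were SLC6A20 (0.74), EPAS1 (0.62), FOXD2 (0.49), GAD1 (0.48), PLXNA2 (0.47) and SLC5A1 (0.47), each with an adjusted p between 0.0205 and 0.0473. Each of these 6 calls was lost in at least 3 of the runs that left out 1 library; those of EPAS1, GAD1, PLXNA2 and SLC5A1 were lost without E2 library 3 (adjusted p = 0.248, 0.191, 0.143 and 0.168), that of FOXD2 without E2+Enza library 1, E2+Enza library 2 or E2 library 2 (0.0678, 0.102 and 0.138), and that of SLC6A20 without E2+Enza library 2, E2+Enza library 3 or E2 library 1 (0.104, 0.0599 and 0.168).

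**Figure D3:**
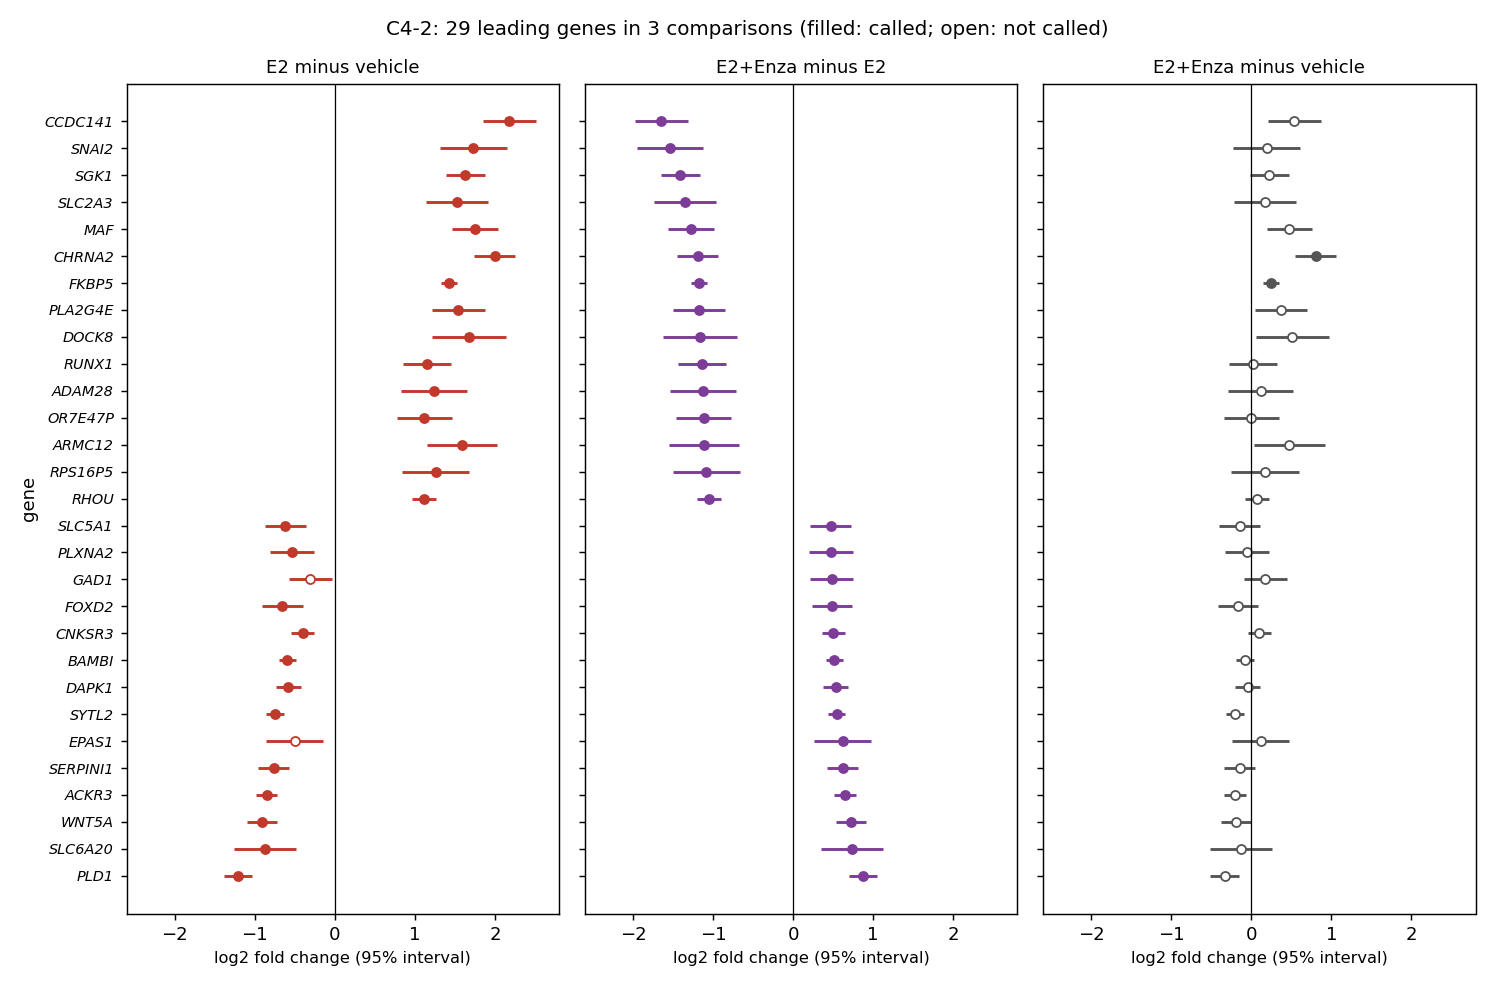
Genes of the largest falls (15) and rises (14) of E2+Enza against E2 (middle panel) with the same genes in E2 against vehicle (left) and E2+Enza against vehicle (right); x axes are log2 fold changes with 95% intervals, filled points are called and open points not. The left and middle panels share the E2 libraries, so their opposite signs are not independent; in the right panel only CHRNA2 and FKBP5 are called.

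Of the 10 tested members of the androgen-repressed list, 5 rose and 0 fell, against 1.43% and 2.03% of all genes, with a median of 0.49: CCN3 (0.84), WNT5A, ACKR3, DAPK1 and CAMK2N1, an inhibitor of a calcium-dependent kinase (0.45). CCN3 averaged 1.03 CPM with E2+Enza, and its call was lost without E2 library 3 (adjusted p = 0.0736), without E2 library 1 (0.0992), without E2+Enza library 1 (0.104) and without E2+Enza library 3 (0.0779). ESR2, which encodes estrogen receptor beta, ranged from 1.81 to 2.18 CPM with E2 and from 1.5 to 2.38 CPM with E2+Enza, so the groups overlapped; the interval of its difference, -0.42 to 0.20, allows a change in either direction. NR3C1, the glucocorticoid receptor gene, was below the filter on low values in C4-2.

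Genes shared with the glucocorticoid response split: of 11 tested, 6 fell and 2 rose (2.03% and 1.43% of all genes), with a median of -0.28. SGK1 and FKBP5, both also in the androgen list, PER1, a clock gene (-0.58), ZBTB16 (-0.50), NFKBIA, the inhibitor of NF-kappaB (-0.34), and ERRFI1 (-0.28) fell. TSC22D3, a leucine zipper protein induced by glucocorticoids, rose by 0.29 (SE 0.058), as did DDIT4 (0.26). Genes activated by estrogen receptor alpha in breast cells gave 1 rise and 1 fall among 15 tested (all genes 1.43% and 2.03%), with a median of 0.10. GREB1, a chromatin co-factor of steroid receptors, fell from 31.3, 29.8 and 35.4 CPM to 19.2, 19.5 and 17.3 CPM (difference -0.77, SE 0.074). CA12, a carbonic anhydrase, rose by 0.22, a call lost without E2+Enza library 3 (adjusted p = 0.0681). PGR, the progesterone receptor gene, was not called (0.55, adjusted p = 0.114), but was called without E2+Enza library 1 (0.78, adjusted p = 0.0111).

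Among 18 genes of the unfolded protein response, 4 fell and 0 rose (2.03% and 1.43% of all genes, the background of each list here), with a median of -0.13. They were HSPA5, the main chaperone of the endoplasmic reticulum (-0.22, adjusted p = 0.000849), MANF (-0.20), HYOU1 (-0.17) and DNAJC3 (-0.16). The count was 2 without E2 library 1, E2 library 2, E2+Enza library 1 or E2+Enza library 2, and 7 without E2+Enza library 3. HSPA5 and HYOU1 were called in each of these runs. Among 16 genes of the amino acid stress response driven by ATF4, 5 rose (1.43% of all genes) and 0 fell, with a median of 0.12: DDIT4 (0.26), SESN2 (0.23), SLC7A11, a cystine transporter (0.22), PSAT1, an enzyme of serine synthesis (0.21), and ASNS, asparagine synthetase (0.17). The call of ASNS was lost without E2 library 3 (adjusted p = 0.0657) or E2+Enza library 3 (0.113).
Polyamine genes gave 2 falls among 8, ODC1, the first enzyme of the pathway (-0.33, SE 0.057), and SMS, spermine synthase (-0.21). The call of SMS was lost without E2 library 2 (adjusted p = 0.113), without E2+Enza library 1 (0.079) and without E2+Enza library 2 (0.0797). Fatty acid synthesis gave 2 falls, ACSL3 and ELOVL5, and 1 rise, ELOVL6 (0.23, lost without E2+Enza library 3 at adjusted p = 0.116 and without E2 library 2 at 0.136), among 12.
The cell-cycle lists were nearly still. For G1/S and DNA replication, 1 of 25 fell, CDC6 (-0.16), a call lost without E2+Enza library 2 (adjusted p = 0.15), E2 library 1 (0.0638) or E2 library 2 (0.082). For G2/M and mitosis, 0 of 20 were called by limma, with a median of 0.03. Of 25 cytosolic ribosomal protein genes 0 were called, with a median of 0.01. MYC gave a difference of 0.03 with an interval of -0.05 to 0.11. Of 18 tested genes in the p53 list, 3 rose and 1 fell (1.43% and 2.03% of all genes), with a median of 0.05. The fall was that of CDKN1A, a cell-cycle inhibitor (-0.20). Its call was lost without E2+Enza library 1 (adjusted p = 0.0538) or E2 library 1 (0.0543).

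**Figure D4:**
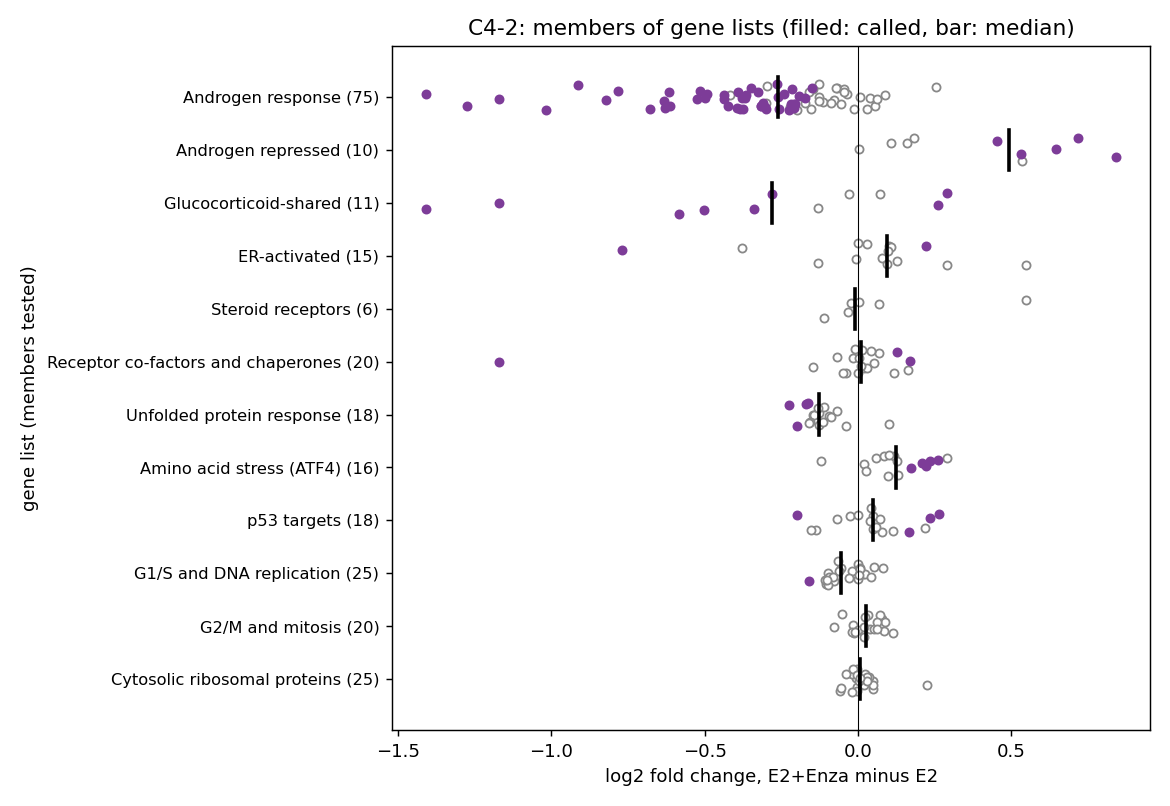
Members of 12 gene lists (rows, with the number tested) by log2 fold change of E2+Enza against E2 (x axis); filled points are called, open points not, and black bars mark the list median. The androgen-activated list reaches to -1.41 with a median of -0.26 and the androgen-repressed list has a median of 0.49, while the ribosomal and G2/M lists lie around 0.

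The levels with both agents stood close to vehicle. In E2 against vehicle, 817 of the 14027 genes (5.82%) were called, 381 higher (2.72%) and 436 lower (3.11%). In E2+Enza against vehicle 11 were called (0.0784%), 6 higher (0.0428%) and 5 lower (0.0356%), and 1224 had an unadjusted p under 0.05. These 2 comparisons share the vehicle libraries, and both share libraries with E2+Enza against E2. Without E2 library 3 the E2 response was 521 genes, 293 higher and 228 lower, and without vehicle library 1 it was 541. With scaling to total reads 438 were higher and 383 lower, and with cyclic loess 525 and 342, so the balance of rises and falls turned with the scaling. KLK2 was 0.67 above vehicle with E2 and 0.06 with E2+Enza (95% interval -0.03 to 0.16); RHOU was 1.11 and 0.07 (-0.08 to 0.22); and WNT5A was -0.91 and -0.19 (-0.38 to -0.01).
The 6 genes still higher with E2+Enza than with vehicle were CHRNA2 (0.81, SE 0.123), TGM2, a transglutaminase (0.64, SE 0.123), SLC45A3 (0.48, SE 0.058), PMEPA1 (0.39, SE 0.043), TMPRSS2 (0.26, SE 0.045) and FKBP5 (0.25, SE 0.048). SLC45A3, for example, averaged 77.3 CPM in vehicle, 220 CPM with E2 and 108 CPM with E2+Enza. Among the lower ones were COLEC12, a scavenger receptor (-0.36), TRIB2 (-0.25), SLC30A4, a zinc transporter (-0.24), and NETO1 (-0.19). TGM2 and these lower genes were named after their values were seen. COLEC12 averaged 118 ± 2.72 CPM in vehicle, 71.9 ± 2.63 CPM with E2, 92.1 ± 7.99 CPM with E2+Enza and 174 ± 2.42 CPM with Enza alone (SD, n = 3). Calls against vehicle numbered 6, 3 and 4 without vehicle library 1, 2 or 3, and 34, of which 27 were lower, without E2+Enza library 3. SLC45A3, PMEPA1 and COLEC12 were called whichever of these 6 libraries was left out. CHRNA2 lost its call without vehicle library 2 (adjusted p = 0.0648) and TMPRSS2 without vehicle library 2 or 3 (0.119 and 0.101). FKBP5, TGM2, TRIB2, SLC30A4 and NETO1 each lost theirs in at least 4 of the 6 omissions. CCDC141 (0.54), MAF (0.48) and STEAP4 (0.60) were above vehicle with intervals that exclude 0 but adjusted p of 0.287, 0.263 and 0.265.

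A list of E2-responsive genes that used no C4-2 library was taken from the other lines. It held 103 genes raised by E2 over vehicle by at least 0.5 in both LNCaP and 22Rv1, where 13.3% and 17.1% of genes were called higher, of which 94 were tested in C4-2. With E2+Enza against E2 in C4-2, 68 of the 94 fell and 0 rose, against 2.03% and 1.43% of all genes, with a median of -0.43 and a range from -1.41 to -0.06. In E2 against vehicle in C4-2, 80 of them were higher (2.72% of all genes) and 0 lower (median 0.52). In E2+Enza against vehicle, 5 were higher and 0 lower (0.0428% and 0.0356% of all genes), with a median of 0.09. The other 89 were not called, but of the 94 genes 76 had a difference above 0 and 18 below. The 34 genes lowered by E2 in both other lines, where 11.6% and 10.6% were called lower, gave less: of 26 tested in C4-2, 3 rose (1.43% of all genes) and 0 fell with E2+Enza against E2, while 5 were lower in E2 against vehicle (median -0.10).

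E2 still changed the levels of many genes when Enza was present. E2+Enza against Enza alone, which shares no library with E2 against vehicle, called 1035 genes (7.38%), 622 higher (4.43%) and 413 lower (2.94%). Scaling to total reads turned this split to 553 higher and 655 lower. The count was 802 without E2+Enza library 3 and 717 without Enza library 2. Of the 381 genes that E2 raised over vehicle, 236 were also higher here and 0 lower, and the median difference was 0.29 here and 0.38 there. Of the 436 that E2 lowered, 174 were lower and 10 higher, with medians of -0.12 and -0.23. Both sets were chosen by their calls against vehicle, which favours larger medians there. The medians therefore do not measure whether the E2 response was weaker with Enza. SLC45A3 was 2.65 higher and KLK2 0.93 higher with E2+Enza than with Enza alone. The genes of the unfolded protein response gave 12 higher of 18 in this comparison, with a median of 0.20.

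Enza acted differently with and without E2 on a subset of genes. Enza alone against vehicle, which shares no library with E2+Enza against E2, called 1184 genes (8.44%), 383 higher (2.73%) and 801 lower (5.71%). This count was 640 and 770 without vehicle library 1 or 2, and 609 and 698 without Enza library 2 or 3. The split also depended on scaling: it was 742 higher and 496 lower with scaling to total reads and 530 and 698 with cyclic loess. At the authors' scaling, on which the shares given next depend, both comparisons called 186 genes lower, 65.3% of the 285 lowered with E2 present and 23.2% of the 801 lowered without it. Both called 72 higher, 35.8% of the 201 and 18.8% of the 383, and 5 genes were called in opposite directions. Across the 14027 genes, which are not independent, the 2 effects had a Pearson r of 0.261 and a Spearman rho of 0.103. The test of the difference between the 2 effects called 210 genes (1.5%), 148 (1.06%) with a more positive effect of Enza in E2 and 62 (0.442%) with a more negative one. That split was 107 and 78 with scaling to total reads and 132 and 105 with cyclic loess. The count of 210 became 116 without E2 library 3, 131 without E2+Enza library 3, 332 without E2+Enza library 2, 130 without vehicle library 1, and 106 or 132 when Enza library 2 or 3 was left out.

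SGK1 and RUNX1 fell with Enza in the presence of E2 and not detectably without it. SGK1 averaged 2.36 ± 0.146 CPM in vehicle and 2.30 ± 0.136 CPM with Enza alone (SD, n = 3); its effect without E2 was -0.03 (95% interval -0.27 to 0.21), and the difference between the effects was -1.38 (SE 0.167, adjusted p = 1.13e-05). RUNX1 gave -0.02 without E2 (interval -0.32 to 0.28) and a difference of -1.11 (SE 0.205). FKBP5 fell by 0.53 without E2 and by 1.17 with it, a difference of -0.64 (SE 0.069, adjusted p = 1.8e-06).
Of the 75 tested genes of the androgen-activated list, the effect of Enza was called more negative in E2 for 5 and more positive for 14. Over all genes the shares were 0.442% and 1.06%, and the rest of the list was not called. Some androgen-activated genes thus showed the reverse of FKBP5. SLC45A3 fell by 2.17 without E2 and by 1.02 with it (difference 1.15, SE 0.082), TMPRSS2 by 1.47 and 0.51 (0.96, SE 0.064) and TRPM8 by 1.38 and 0.37 (1.01, SE 0.084). CYP1B1, a cytochrome P450 that hydroxylates estrogens, averaged 17.7 CPM in vehicle and 6.61 CPM with Enza alone, but 16.9 CPM with E2 and 16.4 CPM with E2+Enza. Its effect in E2 was -0.05 (interval -0.20 to 0.11), and the difference was 1.31 (SE 0.105, adjusted p = 1.14e-08). SOX9, a factor of epithelial progenitors, averaged 16.9 CPM with E2 and 18.9 CPM with E2+Enza, against 19.1 CPM in vehicle and 36.0 CPM with Enza alone (difference -0.73, SE 0.098).
CCDC141 had effects of -1.64 with E2 and -1.72 without it, and the difference of 0.08 (interval -0.39 to 0.55) was not called. CCDC141 was already low in vehicle, so the added 0.5 CPM limits how large a fall without E2 could appear. Whether its effects with and without E2 are alike cannot be judged from these values. The differences called here for SGK1, RUNX1, FKBP5, SLC45A3, TMPRSS2, TRPM8, CYP1B1 and SOX9 were called whichever of the 12 libraries was left out.

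**Figure D5:**
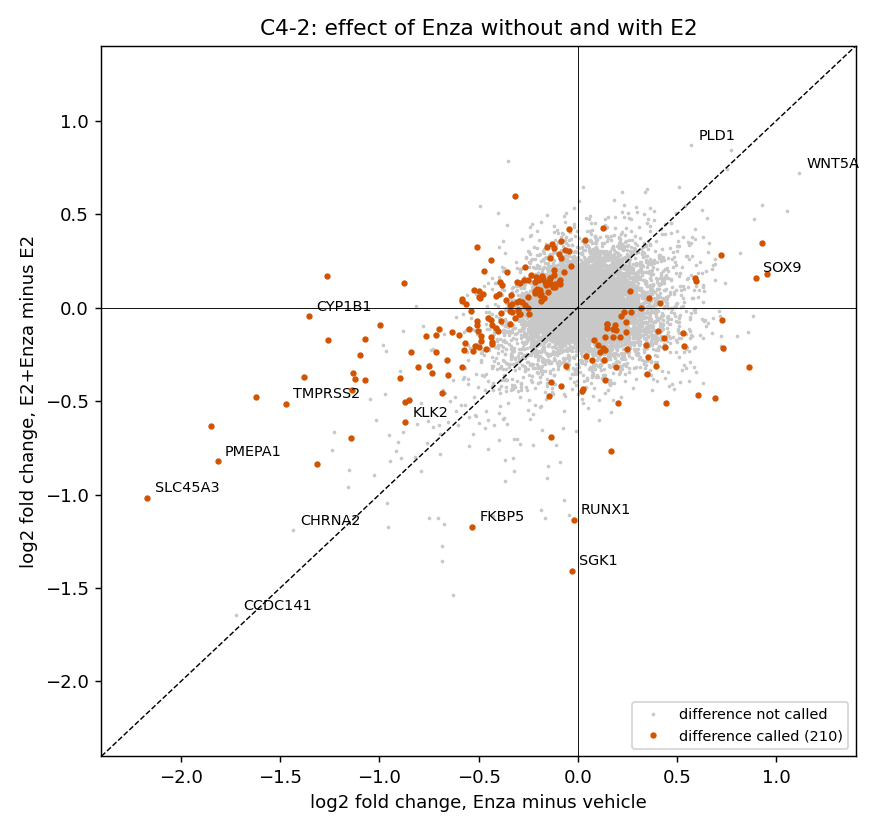
Effect of Enza in the presence of E2 (y axis, log2 fold change of E2+Enza against E2) against its effect without E2 (x axis, Enza against vehicle) for all genes tested in C4-2; the dashed line marks equal effects and orange points are the 210 genes whose effects differ. SGK1 and RUNX1 lie beside the vertical line at 0, below the dashed line, while SLC45A3 and CYP1B1 lie above the dashed line at the left.

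The same contrast was compared with the other lines. In fits of each line alone, E2+Enza against E2 called 1928 genes in LNCaP (13.5%) and 178 in 22Rv1 (1.2%). The difference between C4-2 and LNCaP, tested in a fit of all 54 libraries, was called for 207 of 16026 genes (1.29%), 148 (0.923%) more positive in C4-2 and 59 (0.368%) more negative (91 and 63 with scaling to total reads), and that between C4-2 and 22Rv1 for 167 (1.04%), 93 (0.58%) more positive and 74 (0.462%) more negative. Without E2 library 3 of C4-2 the latter count was 107 and the former 159. KLK2 fell by 0.66 in LNCaP and 0.52 in 22Rv1 beside 0.61 in C4-2, and the differences, 0.04 (interval -0.10 to 0.18) and -0.09 (interval -0.23 to 0.05), were not called.
FKBP5 fell less in C4-2 than in LNCaP (difference 0.33, SE 0.077, adjusted p = 0.0118) and more than in 22Rv1 (-0.57, SE 0.077). The first of these calls was lost without E2 library 3 or E2+Enza library 3 of C4-2 (adjusted p = 0.0626 and 0.0563) and without E2+Enza library 2 or 3 of LNCaP (0.101 and 0.0779). SLC45A3 fell more in C4-2 than in either line (-0.47 against LNCaP and -0.48 against 22Rv1, SE 0.081 for both), as did PMEPA1 (-0.36 and -0.44, SE 0.079 for both). NDRG1, a stress- and androgen-induced gene, averaged 139 CPM with E2 and 102 CPM with E2+Enza in C4-2, against 273 and 81.0 CPM in LNCaP (difference 1.31, SE 0.138). STEAP4 fell by 2.47 in LNCaP and 0.91 in C4-2 (difference 1.56, SE 0.220). Because STEAP4 was low in C4-2, the added 0.5 CPM understates its fall there, which enters this difference. CCDC141 and SNAI2 differed from 22Rv1 by -1.49 and -1.54; in 22Rv1 CCDC141 was at most 0.432 CPM and SNAI2 had 0 reads in these 6 libraries, so both genes were at or near 0 there. TSC22D3 rose in C4-2 and fell by 0.36 in LNCaP and by 0.40 in 22Rv1 (differences 0.65 and 0.69). Of the androgen-activated list, 69 of 77 fell in LNCaP (median -0.45), where 7.26% of all genes did, and 23 of 75 in 22Rv1 (median -0.18), where 1.06% did, beside 46 of 75 in C4-2.

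Over the 18 C4-2 libraries, the genes whose log2 level followed that of KLK2 most closely were KLK3 (r = 0.991), DUSP4, a MAP kinase phosphatase (0.990), MALT1, a protease of lymphocyte signalling (0.990), THBS1, a matrix glycoprotein (0.989), and HSPA5 (0.988). These correlations describe libraries that share their treatments. THBS1 averaged 226 CPM with E2, 126 CPM with E2+Enza, 132 CPM in vehicle and 52.6 CPM with Enza alone, and DUSP4 averaged 183, 133, 120 and 74.7 CPM in the same groups. Both fell with E2+Enza against E2, THBS1 by 0.83 (SE 0.056) and DUSP4 by 0.45 (SE 0.040). For THBS1 the means of E2+Enza and vehicle, neighbours in that order, did not differ beyond their test (-0.06, not called).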

How the data were processed

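RNA was extracted with TRIzol and made into libraries with a stranded total RNA kit, per the labels' protocols; whether counting used strand is not given in the sources used here. Trimmomatic, featureCounts, edgeR, FastQC and the hg38 build are named, without versions, per the submitters' processing notes. The deposited values are a score: each is log2 CPM, with 0.5 reads added by the authors, times a factor per library that makes the column sum to 1000000, as read from the values. Back-calculation gave whole reads for 100% of values (tolerance 0.01), and 18917 of 19225 IDs matched RefSeq. CPM used these reads and the authors' effective library sizes. Groups were taken from sample titles. On log2(CPM + 0.5), genes were tested with limma (version 3.58.1 under R 4.3.3) and a trended prior variance, two-sided, Benjamini-Hochberg adjusted over all genes tested and called at 0.05. All 18 C4-2 libraries shared one spread, and line differences used 54. The script was tested on simulated data.

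Genes named in the text come from the 15 largest rises and falls described, a fixed list of androgen, estrogen and stress genes, up to 4 members of each gene list with the smallest p, 5 genes each way for each difference of effects, and the 5 most like KLK2. Members of gene lists shown for contrast, and genes called against vehicle, were added after their values were seen. The comparison, its members and the gene lists were chosen with earlier results of these data known. Alternatives covered the pseudocount, the filter, scaling to total reads, cyclic loess, voom weights, the replicate block, other sets of libraries and leaving out each library; library 3 of both groups was left out together as an alternative added after seeing the data. Some genes and 1 gene list that these rules name are not reported here.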

Additional observations from a re-analysis of the deposited data

Results flagged for a closer look

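Each value here passed a test that the effect of Enza differed between 2 settings, and is a log2 difference between effects with limma's adjusted p under 0.05. The genes given are among the 5 each way with the largest difference.

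Between C4-2 cells with and without E2, the effect of Enza was more negative in E2 for SGK1 (-1.38), RUNX1 (-1.11), PCOLCE (-0.95), TTN (-0.93) and NEDD9 (-0.80). It was more positive for STYXL2 (1.43), CYP1B1 (1.31), SLC45A3 (1.15) and C1orf116 (1.14). PCOLCE had an adjusted p of 0.0454, means of 0.894 to 1.82 CPM over the 4 groups, and lost its call in 10 of the 12 omissions of 1 library.

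Between C4-2 and LNCaP, the effect of Enza in E2 was more negative in C4-2 for FFAR2 (-0.94), CXCL12 (-0.90), JAK3 (-0.89), TLL1 (-0.88) and FES (-0.84). It was more positive for NDRG1 (1.31), NNT (1.29), HPGD (1.12), PHLDB2 (1.06) and MIR1915HG (0.97). NNT averaged 17.4 CPM with E2 and 15.9 CPM with E2+Enza in C4-2, and 4.96 and 1.58 CPM in LNCaP. In C4-2 HPGD was at most 0.514 CPM and PHLDB2 at most 0.430 CPM in the E2 and E2+Enza libraries. FES lost its call without E2 library 3 of C4-2 (adjusted p = 0.0843), and FFAR2 and JAK3 without several single libraries.

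Between C4-2 and 22Rv1, it was more negative in C4-2 for SNAI2 (-1.54), CCDC141 (-1.49), TRIM49D1 (-1.05), DSC1 (-0.95) and EBF2 (-0.92). It was more positive for PLD1 (1.05), CCN3 (0.92), AQP3 (0.70) and TSC22D3 (0.69). TRIM49D1 has near-identical copies, so its reads are uncertain. PLD1 was at most 0.523 CPM in the E2 and E2+Enza libraries of 22Rv1. EBF2 and CCN3 each lost their call without several single libraries.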

How the results depend on the processing

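The 486 calls of E2+Enza against E2 ranged from 363 to 423 when 1 library was left out, and 280 (80 higher, 200 lower) were called in a fit of the 6 libraries alone, with fewer degrees of freedom. Same-numbered libraries of the 2 groups did not deviate together (r = -0.094, -0.375 and -0.515), so the numbers were not taken as pairs; with a replicate block 458 genes were called. For 78 called genes among those followed one by one, 52 were called under each of the 17 alternatives, and none changed sign.

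Without E2 library 3 and vehicle library 1 together, E2 against vehicle gave 396 calls, Enza against vehicle 751 and the difference between the effects of Enza 96. The 11 calls of E2+Enza against vehicle became 20 with scaling to total reads, 35 with cyclic loess and 27 in one fit of 54 libraries, and that fit gave 363 calls for the difference between the effects of Enza. Leaving out 1 library gave 521 to 868 calls for E2 against vehicle (817 with all), 3 to 34 for E2+Enza against vehicle, 609 to 1081 for Enza against vehicle (1184), 106 to 332 for the difference between the effects of Enza (210) and 107 to 208 for C4-2 minus 22Rv1 (167). Such omissions gave 717 to 947 calls for E2+Enza against Enza alone (1035) and 148 to 218 for C4-2 minus LNCaP (207). The 4 lowered genes of the unfolded protein response became 7 with scaling to total reads or cyclic loess, 0 in the fit of 6 libraries, 8 without library 3 of both groups and 2 to 7 without 1 library. The 5 raised ATF4 genes became 8 with scaling to total reads and 3 without library 3 of both groups. For those settings the cause was not tested.

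In the 6 libraries 1 read was worth at most 0.0239 CPM. Whether depth or the number of libraries limited the calls was not tested.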
